A study of Mus musculus with 7 samples.

Results

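The transfer RNAs described here are the cytosolic arginine tRNAs that read the CGN codon box, the block of codons that all begin with CG and all encode arginine. They were chosen by anticodon, as all tRNAs listed under Arg-ACG, Arg-CCG or Arg-TCG, written with T for U as in the files. They made up 3 of the 52 anticodon pools and 10 of the 217 isodecoders measured, an isodecoder being a tRNA that shares its anticodon with others but differs from them elsewhere in its body. The rule itself uses no measured value, though it was set with earlier results of these data known.

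The tRNAs were sequenced by QuantM-seq, in which a double-stranded adapter is ligated to the termini of mature tRNAs, in 7 libraries of cultured mouse glial cells of the 129S/SvEv strain. Oligodendrocyte progenitor cells (OPCs, n = 3 libraries) were derived from epiblast stem cells of male embryos and kept in medium with bFGF and PDGFA. Oligodendrocytes (OLs, n = 2) were differentiated from these OPCs with the thyroid hormone T3 in medium that also held noggin, IGF-1, cyclic AMP and NT3, and astrocytes (n = 2) with BMP4, together with bFGF, Hb-EGF and CNTF, each over about 3 days. According to the study the oligodendrocyte cultures still held undifferentiated OPCs, and the tables hold tRNAs alone, so the cell types could not be checked here against mRNA markers.

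Arginine is decoded by this box and by the AGA and AGG codons, which are served by Arg-TCT and Arg-CCT. Within the box, the adenosine at the wobble position of Arg-ACG is deaminated to inosine by the ADAT enzyme complex, and inosine pairs with U, C or A, so that Arg-ACG reads CGU, CGC and CGA. Arg-TCG reads CGA and, by wobble, CGG, and Arg-CCG reads CGG. Arginyl-tRNA synthetase charges all of these tRNAs, and mutations in its gene RARS1 cause a hypomyelinating leukodystrophy, a disease of the myelin that oligodendrocytes make.

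The genomic sequence was at hand for 1 gene of the box, n-TRtcg5, and is shown because the anticodon that defines the pool can be read in it. It lacks the 3′ CCA of the mature tRNA. The gene is annotated by RefSeq on GRCm38 at chr7:79466419-79466491, plus strand, within an exon of the transcript Gm10616 and 57 bases from Polg, which encodes the catalytic subunit of the mitochondrial DNA polymerase. The capitals mark the anticodon, at bases 34 to 36 of the 73.
n-TRtcg5: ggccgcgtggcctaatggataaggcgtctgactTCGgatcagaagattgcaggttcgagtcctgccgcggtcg

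RefSeq lists 14 genes for the box, 6 for Arg-ACG, 3 for Arg-CCG and 5 for Arg-TCG, which equals the number of gene copies named in the isodecoder rows. All 14 are 73 bases long. On chromosome 13, 7 of the 14 lie between positions 21215458 and 23526528, a span of 2311071 bases, and others lie on chromosomes 3, 7, 9, 11, 14 and 17. Of the 14 genes, 12 are intergenic, n-TRacg3 lies in an intron of 1700064H15Rik and n-TRtcg5 in the exon named above. The tables do not say which gene gave which isodecoder, so n-TRtcg5 could not be tied to a row.

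Values are given as RPM, in which the reads of each library assigned to cytosolic or mitochondrial tRNAs were scaled to the same total. Total assigned reads ranged from 1339021 to 2627351 per library and reads of the box from 111037 to 222418. Even the least abundant member, at 1905 RPM or more, lay far above the 3 reads (1.14 to 2.24 RPM) that a count of 0 allows. Whether counting error was small beside the spread between libraries was not tested for each member. For Arg-TCG-2 the OPC libraries lay close together, with an SD of 36.1 RPM. Reads outside the cytosolic tRNAs made up 3.55% to 3.90% of the total in OLs, 4.98% to 6.94% in OPCs and 7.74% to 7.88% in astrocytes, and the total to which RPM are scaled includes these reads. The median log2 difference over all 52 pools was 0.12 for OLs against OPCs and 0.11 for OLs against astrocytes. It was 0.02 and 0.00 under median-of-ratios scaling, and differences relative to the median are given where this matters.

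The box was the larger share of the arginine tRNAs in each cell type. It held 76.9% ± 1.08 (SD, n = 3) of the arginine reads in OPCs, 77.3% ± 0.429 (n = 2) in OLs and 76.1% ± 1.31 (n = 2) in astrocytes. Its summed level was 82924, 79757 and 91430 RPM in the OPC libraries, 88374 and 93506 RPM in those of OLs and 82986 and 81911 RPM in those of astrocytes. The third OPC library lay between the OL values, so OLs and OPCs overlapped. In these bulk libraries, a different mix of cells and a different amount of tRNA per cell cannot be told apart. On the log2 scale the sum differed by 0.10 between OLs and OPCs (exact permutation test, two-sided, p = 0.3), where 3 libraries against 2 allow no p below 0.1. It differed by -0.04 between astrocytes and OPCs (exact p = 0.9) and by 0.14 between OLs and astrocytes (exact p = 0.3333, the smallest that 2 against 2 allow). Under median-of-ratios scaling the sum differed by 0.0089 between OLs and OPCs and by 0.031 between OLs and astrocytes, and the first of these was 0.062 without OPC replicate 2, 0.064 without OL replicate 2 and 0.161 without OPC replicate 3, as deposited. The p-values adjusted over these 3 comparisons ranged from 0.5 to 0.9.

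Arg-TCG, the pool that reads CGA and CGG, was the most abundant of the box in all 7 libraries. It measured 42108, 42237 and 48515 RPM in OPCs, 42862 and 45777 RPM in OLs, and 42529 and 39966 RPM in astrocytes. It ranked between 6 and 8 of the 52 pools in every library. The OL and OPC values overlapped, and the log2 difference was 0.00 (95% interval -0.22 to 0.23, limma adjusted p = 0.987). Relative to the median pool it was lower in OLs by -0.11, and the sign of the difference itself turned to -0.03 when RPM were rescaled to the cytosolic tRNAs and to -0.09 under median-of-ratios scaling.

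Arg-ACG, the inosine-bearing pool, measured 25927, 22806 and 28888 RPM in OPCs, 29321 and 31876 RPM in OLs, and 26089 and 23443 RPM in astrocytes. Both OL libraries lay above every OPC and astrocyte library. The mean was 30599 ± 1807 RPM in OLs (SD, n = 2) against 25874 ± 3041 RPM in OPCs (n = 3), a log2 difference of 0.25 (SE 0.115, 95% interval -0.06 to 0.56, limma adjusted p = 0.237), or 0.13 above the median pool. Against astrocytes, at 24766 ± 1872 RPM, it was 0.31 (adjusted p = 0.258). Neither difference passed the threshold of an adjusted p under 0.01. The difference from OPCs was 0.21 when RPM were rescaled to the cytosolic tRNAs, 0.15 under median-of-ratios scaling and 0.16 without OPC replicate 2, and that from astrocytes was 0.20 under median-of-ratios scaling.

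Arg-CCG, which reads CGG alone, was the least abundant pool of the box in all 7 libraries. It measured 14889, 14714 and 14027 RPM in OPCs, 16191 and 15852 RPM in OLs, and 14368 and 18502 RPM in astrocytes. The OL libraries lay above all OPC libraries, by 0.14 on the log2 scale (SE 0.039, limma adjusted p = 0.119), which was 0.02 above the median pool and became 0.04 under median-of-ratios scaling. The astrocyte libraries lay far apart and enclosed the OL values. The astrocyte difference from OPCs was 0.17 with both libraries and -0.02 without astrocyte replicate 2, and neither passed the threshold.

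For OLs against OPCs, 0 of the 3 pools passed the limma test, where 0% of all 52 pools passed, 0 of the 3 passed at an adjusted p under 0.05, against 7.69%, and 1 of the 3 had an unadjusted p under 0.05, against 25% of all pools. The OL and OPC libraries did not overlap for 2 of the 3 pools, against 48.1% of all pools. For astrocytes against OPCs 0 of 3 pools passed, at 0% of all pools, 0 of 3 had an unadjusted p under 0.05, against 11.5%, and 0 of 3 did not overlap, against 32.7%. For OLs against astrocytes 0 of 3 passed, at 0% of all pools, with 0 of 3 at an unadjusted p under 0.05, against 15.4%, and 2 of 3 did not overlap, against 57.7%.

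**Figure D1:**
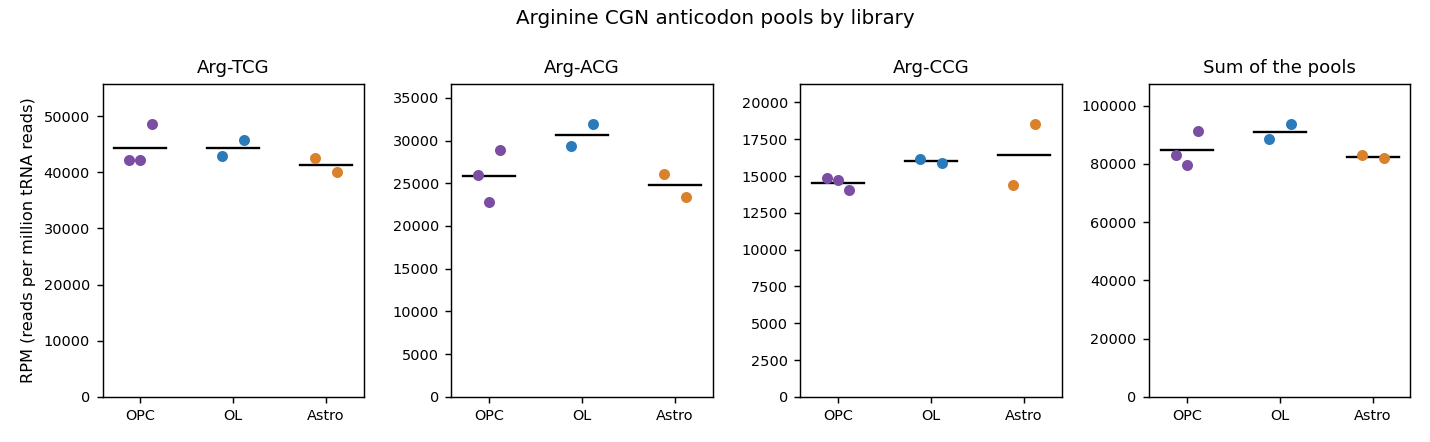
RPM of the arginine CGN pools and of their sum (vertical axes, from 0) in each OPC, OL and astrocyte library (points), with the group mean as a line. The Arg-ACG points of both OLs, at 29321 and 31876 RPM, sit above all other libraries, while the Arg-TCG points of OLs and OPCs overlap.

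The division of the reads of the box among its anticodons was compared next. Arg-TCG took 52.3% ± 1.29 of the box in OPCs, 48.7% ± 0.322 in OLs and 50.0% ± 1.74 in astrocytes. Arg-ACG took 31.3%, 28.6% and 31.6% in the OPC libraries, 33.2% and 34.1% in those of OLs and 31.4% and 28.6% in those of astrocytes. The OL share of Arg-ACG thus lay above all other libraries, and exceeded that of OPCs by 3.15 percentage points (exact permutation test, two-sided, p = 0.1, the smallest possible; adjusted over 9 share comparisons 0.75). The Arg-TCG share was lower in OLs than in OPCs by -3.54 points (exact p = 0.2, adjusted 0.75). The Arg-CCG share lay between 15.3% and 18.4% in OPCs, at 18.3% and 16.95% in OLs, and at 17.3% and 22.6% in astrocytes. With libraries this few, no difference of shares could pass the threshold of 0.01.

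The order of the pools by level was not that of their gene numbers. Divided by the number of gene copies in the row names, Arg-TCG (5 copies) gave 7993 to 9703 RPM per copy over the 7 libraries, above Arg-CCG (3 copies) at 4676 to 6167 and Arg-ACG (6 copies) at 3801 to 5313. Arg-ACG and Arg-CCG overlapped in this measure.

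At the level of isodecoders, the tRNA of the box that differed most between cell types was Arg-TCG-2, a minor member of its pool with a single gene copy. It measured 2804, 2802 and 2741 RPM in OPCs, 1905 and 2009 RPM in OLs, and 3283 and 3913 RPM in astrocytes. All OPC libraries lay above both OL libraries and below both astrocyte libraries, with no overlap. It was lower in OLs than in astrocytes by -0.87 on the log2 scale (SE 0.125, 95% interval -1.15 to -0.60, limma adjusted p = 0.0021), which passed the threshold and left OLs at 0.546 times the astrocyte level. Against OPCs it was -0.51 in OLs (95% interval -0.72 to -0.29, limma adjusted p = 0.0116), which narrowly missed the threshold, and 0.37 in astrocytes (limma adjusted p = 0.151).

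The call of Arg-TCG-2 between OLs and astrocytes rested on few libraries. Leaving out an OL or astrocyte library leaves 1 in a group, so those fits cannot decide whether the call holds. The limma adjusted p was 0.0053, 0.0033 and 2.32e-04 without OPC replicate 1, 2 and 3. It was 0.0205 without a variance trend and 0.0169 without the filter on low values, where 0 of all isodecoders passed in either fit. The log2 difference stayed between -1.0 and -0.75 throughout, and was -0.94 when RPM were rescaled to the cytosolic tRNAs. The OL against OPC difference of this tRNA stayed between -0.57 and -0.47 and passed under both rescalings. Its limma adjusted p ranged from 0.0033 to 0.0401 in the fits that kept both OL libraries and had no term for the replicate number.

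Arg-TCG-1, also of 1 gene copy, lay the other way in OLs. It measured 9709, 9231 and 8726 RPM in OPCs, 10927 and 11517 RPM in OLs, and 9533 and 10194 RPM in astrocytes. Both OL libraries lay above all others, with a log2 difference from OPCs of 0.28 (95% interval 0.10 to 0.47, limma adjusted p = 0.0455) that missed the threshold. The ratio of Arg-TCG-1 to Arg-TCG-2 in RPM was 3.46, 3.29 and 3.18 in OPCs, 5.73 in both OL libraries, and 2.90 and 2.60 in astrocytes. The ratios did not overlap between the cell types, and as shares of the pool neither tRNA passed the threshold between OLs and OPCs (limma adjusted p = 0.252 for Arg-TCG-1 and 0.0459 for Arg-TCG-2). The ratio sets members that lay opposite ways in OLs against each other, so it repeats their differences.

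The main members of the pool were Arg-TCG-3, with 2 gene copies, and Arg-TCG-4, with 1. Arg-TCG-3 was the most abundant isodecoder of the box in every library, at 18954, 19274 and 23350 RPM in OPCs, 19679 and 21645 RPM in OLs, and 19977 and 17363 RPM in astrocytes. The groups overlapped, and the log2 difference of OLs from OPCs was 0.01 (95% interval -0.23 to 0.26), with the sign turned to -0.02 and -0.05 by the rescalings. Arg-TCG-4 measured 10640, 10930 and 13699 RPM in OPCs, 10351 and 10606 RPM in OLs, and 9737 and 8495 RPM in astrocytes. OPC replicate 3 stood above the other libraries for this tRNA. Astrocytes lay below all OPC libraries, by -0.36 on the log2 scale (limma adjusted p = 0.177).

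In the Arg-CCG pool, Arg-CCG-2 was the member that was lower in OLs. It measured 4921, 4805 and 4677 RPM in OPCs, 3907 and 3649 RPM in OLs, and 4410 and 5940 RPM in astrocytes. The OL libraries lay below all others, by -0.35 against OPCs (95% interval -0.55 to -0.15, limma adjusted p = 0.0299) and -0.44 against astrocytes (limma adjusted p = 0.0756). Neither difference of levels passed the threshold.

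As a share of the Arg-CCG pool, Arg-CCG-2 made up 33.0%, 32.7% and 33.3% in OPCs, 24.1% and 23.0% in OLs, and 30.7% and 32.1% in astrocytes. A share does not depend on the total to which a library is scaled. The log2 difference of the share was -0.49 for OLs against OPCs (SE 0.035, limma adjusted p = 0.0099) and -0.41 for OLs against astrocytes (limma adjusted p = 0.0046), and both passed the threshold. The first call was lost when any OPC library was left out (limma adjusted p from 0.0204 to 0.0421), with a pseudocount of 0.1 (0.0104) and without the filter on low values (0.0117). Over the alternatives that kept both OL libraries, its limma adjusted p ranged from 0.0025 to 0.0839. The second was also lost without OPC replicate 1, 2 or 3 (limma adjusted p = 0.0150, 0.0198 and 0.0120). It was lost as well in a fit of the OL and astrocyte libraries alone (0.0388). Fits without an OL or astrocyte library leave 1 in a group and cannot decide whether the calls hold. The differences themselves stayed between -0.52 and -0.45 and between -0.45 and -0.38.

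The other members of this pool had higher values in OLs than in OPCs. Arg-CCG-3 measured 6190, 6100 and 5125 RPM in OPCs, 7371 and 7399 RPM in OLs, and 5859 and 7646 RPM in astrocytes. Arg-CCG-1 measured 3778, 3809 and 4225 RPM in OPCs, 4913 and 4804 RPM in OLs, and 4099 and 4916 RPM in astrocytes. The OL libraries lay above all OPC libraries for both, with log2 differences of 0.35 for Arg-CCG-3 (limma adjusted p = 0.0526) and 0.31 for Arg-CCG-1 (limma adjusted p = 0.0560), while the astrocyte libraries spread over a range that held the OL values. The ratio of Arg-CCG-3 to Arg-CCG-2 in RPM was 1.10 to 1.27 in OPCs, 1.89 and 2.03 in OLs, and 1.33 and 1.29 in astrocytes. This ratio, too, sets members that lay opposite ways in OLs against each other.

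The members of the inosine-bearing Arg-ACG pool all had higher means in OLs than in OPCs. Arg-ACG-1, with 3 gene copies, measured 11214, 10189 and 11789 RPM in OPCs, 12767 and 12857 RPM in OLs, and 9315 and 9427 RPM in astrocytes. OLs were the highest and astrocytes the lowest group, without overlap, and OLs exceeded astrocytes by 0.45 on the log2 scale (95% interval 0.22 to 0.68, limma adjusted p = 0.0168). This missed the threshold, except without OPC replicate 3, where it passed. Arg-ACG-3, with 2 copies, measured 10415, 8434 and 11184 RPM in OPCs, 11487 and 13586 RPM in OLs, and 12506 and 10268 RPM in astrocytes. Its OL libraries lay above all OPC libraries (log2 difference 0.33, limma adjusted p = 0.139) and overlapped those of astrocytes. The ratio of Arg-ACG-1 to Arg-ACG-3 in RPM was 1.05 to 1.21 in OPCs, 1.11 and 0.946 in OLs, and 0.745 and 0.918 in astrocytes. In this ratio OLs and OPCs overlapped.

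Arg-ACG-2, with 1 copy, ranged from 4183 to 5914 RPM in OPCs, where replicate 3 stood apart, and was 5067 and 5434 RPM in OLs and 4268 and 3748 RPM in astrocytes. Arg-ACG-1 held 40.8% to 44.7% of the Arg-ACG pool in OPCs, 43.5% and 40.3% in OLs, and 35.7% and 40.2% in astrocytes, and for 0 of the 3 members of the pool did a share pass the threshold in any comparison.

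**Figure D2:**
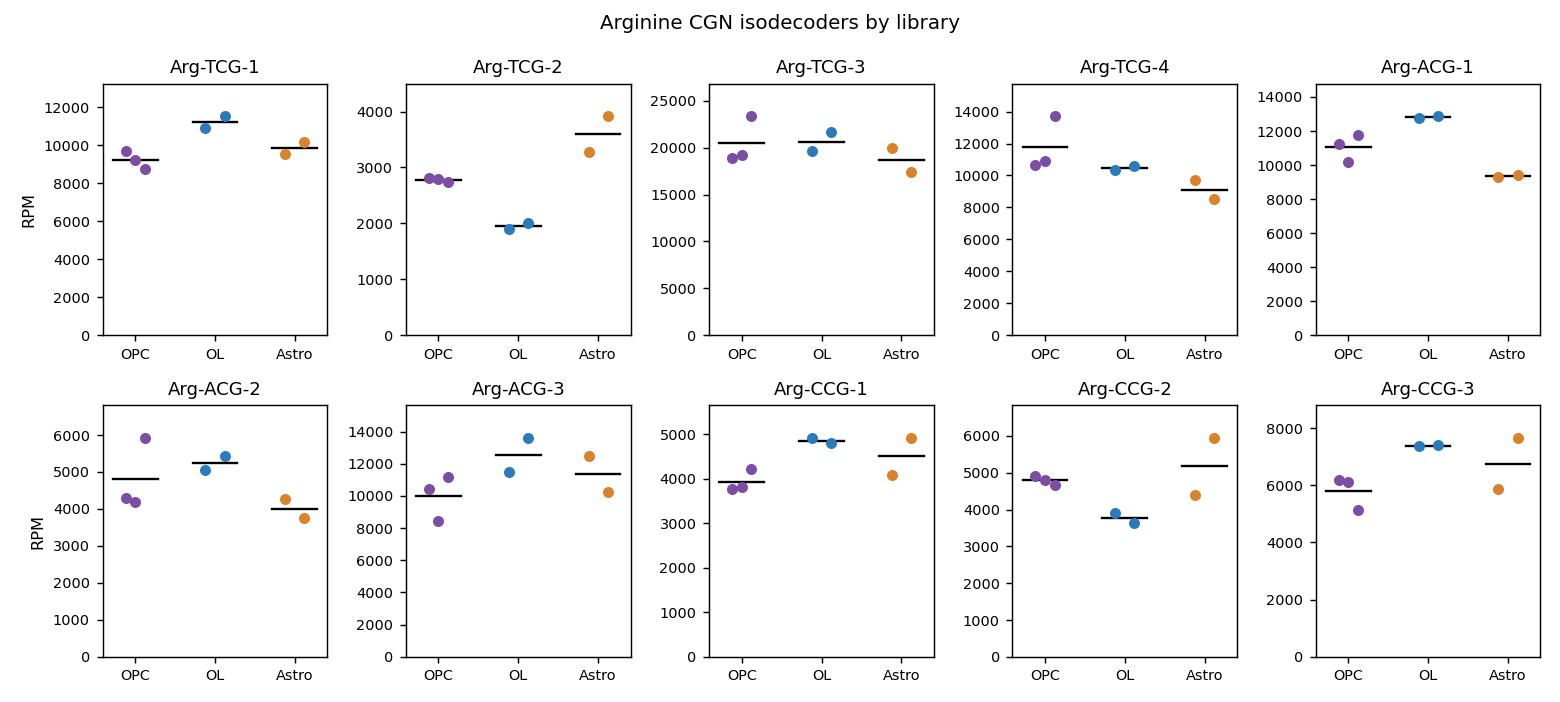
RPM of each of the 10 arginine CGN isodecoders (vertical axes, each from 0) in every OPC, OL and astrocyte library (points), with the group mean as a line. Arg-TCG-2 at 1905 to 2009 RPM and Arg-CCG-2 at 3649 to 3907 RPM are lowest in OLs, and the groups do not overlap for Arg-TCG-2.

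Over all members, 0 of 10 isodecoders passed the threshold between OLs and OPCs, against 5.73% of the 192 isodecoders tested. All 10 passed the filter of a mean of 1 RPM. At an adjusted p under 0.05, 3 of 10 did (Arg-TCG-2, Arg-CCG-2 and Arg-TCG-1), against 18.2% of all, and 7 of 10 had an unadjusted p under 0.05, against 32.8%. The OL and OPC libraries did not overlap for 8 of 10, 5 higher and 3 lower in OLs, against 53.1% of all isodecoders. The median log2 difference was 0.18 over the 10 members and 0.09 over all isodecoders. The count past the threshold was 3 without OPC replicate 3, where 29 of all 192 isodecoders passed, against 11 with it. That replicate was the deepest of the OPC libraries.

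Between astrocytes and OPCs 0 of 10 isodecoders passed, at 0% of all, 0 of 10 at an adjusted p under 0.05, against 7.29%, and 2 of 10 had an unadjusted p under 0.05, against 20.8%. The libraries did not overlap for 3 of 10 (Arg-TCG-2 higher in astrocytes, Arg-TCG-4 and Arg-ACG-1 lower), against 39.6% of all. Between OLs and astrocytes 1 of 10 passed (Arg-TCG-2), against 6.25% of all. At an adjusted p under 0.05, 2 of 10 passed, Arg-ACG-1 being the other, against 9.38%, 4 of 10 had an unadjusted p under 0.05, against 27.1%, and the libraries did not overlap for 6 of 10, against 60.4%. Between OLs and astrocytes the members were thus near all isodecoders in the proportion called and the proportion that did not overlap. The count past the threshold was 2 without OPC replicate 3, where 20 of all 192 isodecoders passed, against 12 with it. It was 1 without OPC replicate 1 or 2 (9 and 8 of all). Leaving out an OL or astrocyte library leaves 1 in a group, so only the log2 difference of Arg-TCG-2 is given. It was -0.83 and -0.91 without OL replicate 1 and 2, and -0.9997 and -0.75 without astrocyte replicate 1 and 2.

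For isodecoder shares of their pools, 1 of 10 members passed between OLs and OPCs, against 2.17% of the 184 shares tested, and 1 of 10 between OLs and astrocytes, against 3.8%. It was Arg-CCG-2 in each. An unadjusted p under 0.05 was found for 2 of 10 in both, against 31% and 27.2% of all shares, and the libraries did not overlap for 6 and 8 of 10, against 55.4% and 58.7%. Between astrocytes and OPCs 0 of 10 passed, at 0% of all shares, with 3 of 10 at an unadjusted p under 0.05, against 23.4%. The share of Arg-TCG-2 in its pool was 6.66%, 6.63% and 5.65% in OPCs, 4.45% and 4.39% in OLs, and 7.72% and 9.79% in astrocytes. It was lowest in OLs and highest in astrocytes without overlap, with limma adjusted p = 0.0459 against OPCs and 0.0153 between OLs and astrocytes.

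**Figure D3:**
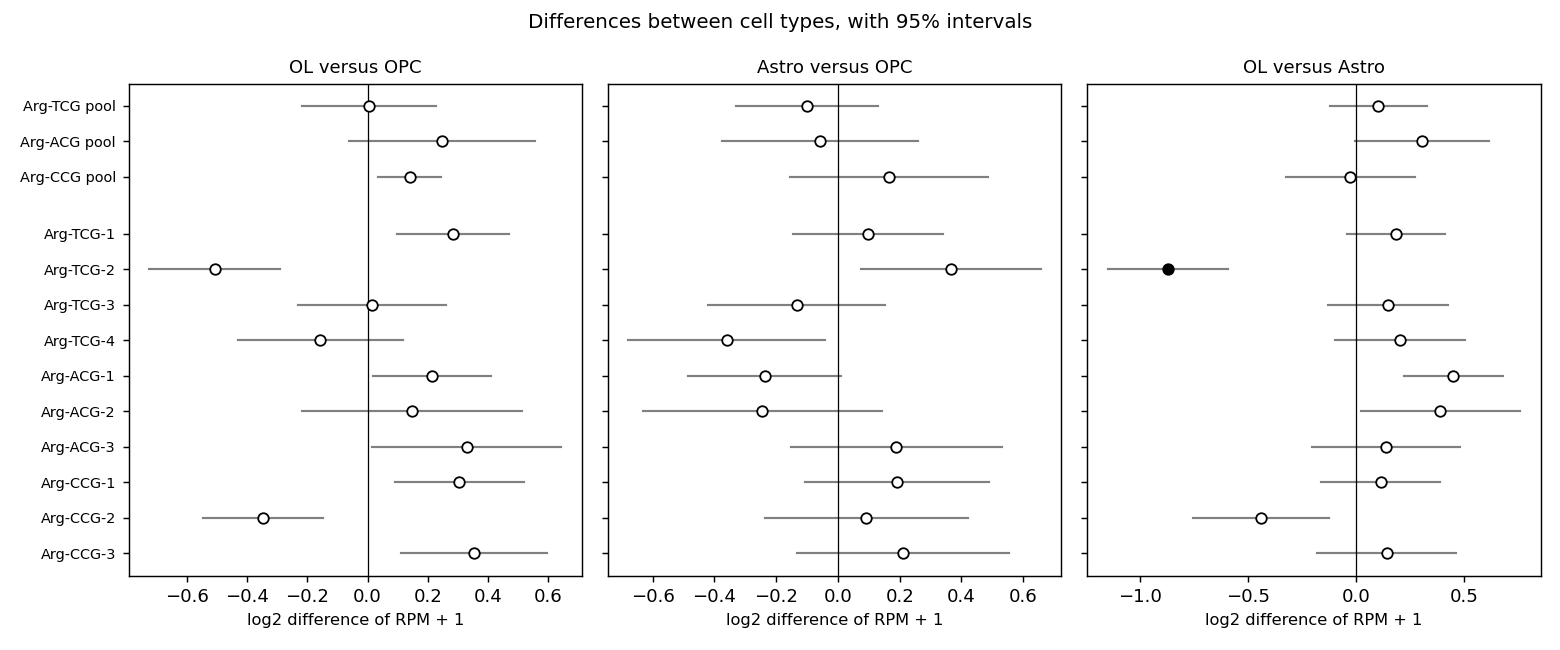
Log2 differences of RPM + 1 (horizontal axes) of the 3 pools and 10 isodecoders for OLs against OPCs, astrocytes against OPCs and OLs against astrocytes, with 95% intervals from limma. The filled point marks the 1 difference with an adjusted p under 0.01, Arg-TCG-2 between OLs and astrocytes at -0.87.

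**Figure D4:**
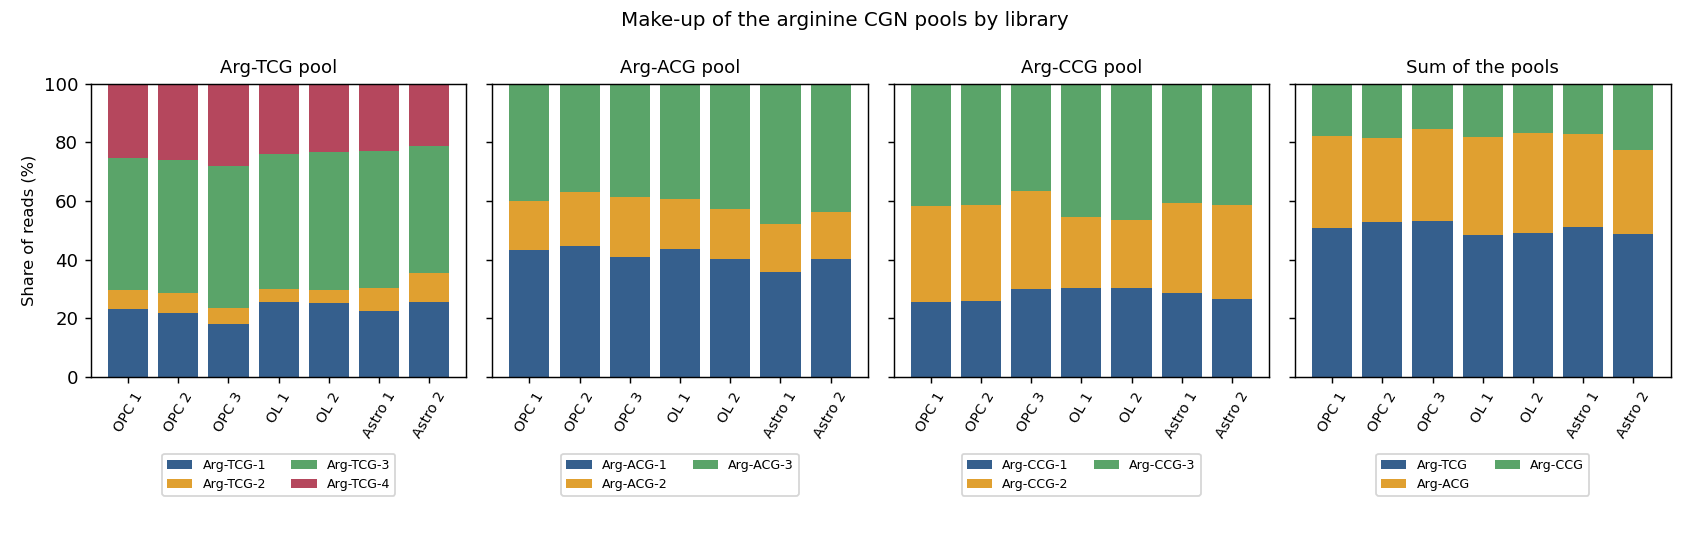
Share of reads (vertical axis, percent) of each isodecoder in its anticodon pool, and of each pool in the sum of the pools, as stacked bars for the 7 libraries. The Arg-CCG-2 segment narrows to 24.1% and 23.0% in the OL libraries, against 30.7% or more in the others.

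Ordered by level, adjacent isodecoders often did not differ beyond their spread. Arg-TCG-3 exceeded the next member, Arg-ACG-3, in 7 of 7 libraries, without overlap. Arg-ACG-3, Arg-ACG-1, Arg-TCG-4 and Arg-TCG-1 then followed with overlapping ranges, each exceeding the next in 3 or 4 of 7 libraries. Arg-TCG-1 exceeded Arg-CCG-3 in 7 of 7 libraries without overlap. Below it, Arg-CCG-3, Arg-ACG-2, Arg-CCG-2 and Arg-CCG-1 overlapped in turn, and Arg-TCG-2 was the lowest of the 10 in 6 libraries and ninth in the astrocyte library with 3913 RPM.

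Per gene copy, a different order was seen. Arg-TCG-4 (8495 to 13699 RPM per copy), Arg-TCG-3 (8682 to 11675) and Arg-TCG-1 (8726 to 11517) were above all other members in every library. The 3 rows of Arg-ACG lay between 3105 and 6793 RPM per copy and those of Arg-CCG between 3649 and 7646. Arg-TCG-2, at 1905 to 3913 RPM per copy, stood apart from the other members of its pool and was the lowest of the 10 rows in all 5 OPC and OL libraries.

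**Figure D5:**
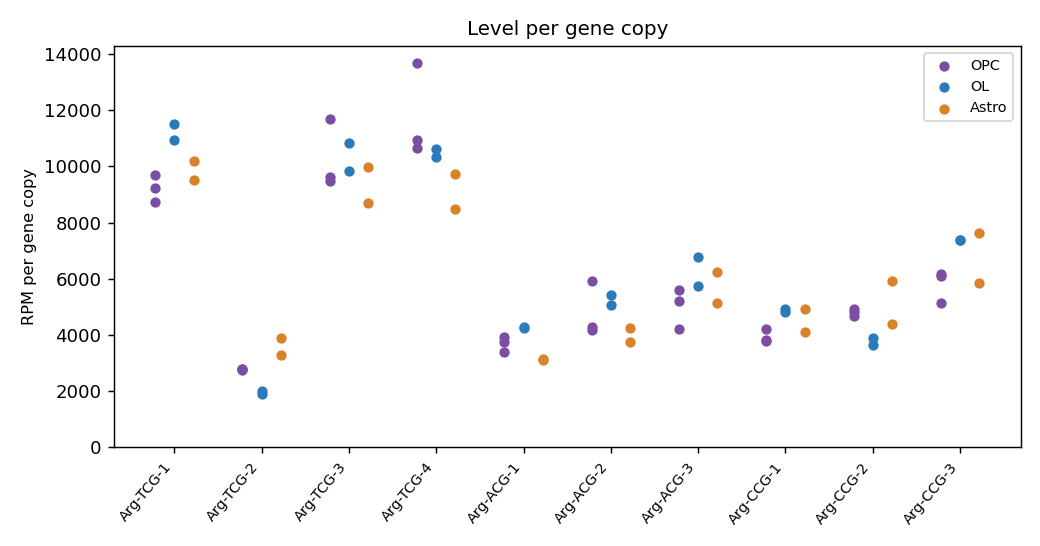
RPM per gene copy (vertical axis, from 0) of the 10 arginine CGN isodecoders in each library, coloured by cell type. Arg-TCG-1, Arg-TCG-3 and Arg-TCG-4 sit at 8495 to 13699, above all other members, and Arg-TCG-2 sits at 1905 to 3913.

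The other arginine pools, which read AGA and AGG, were compared as the nearest neighbours of the box. Arg-TCT measured 14809 ± 625 RPM in OPCs, 15214 ± 322 in OLs and 14106 ± 387 in astrocytes. Arg-CCT measured 10528 ± 327, 11549 ± 94.0 and 11861 ± 2013 RPM. Neither passed the threshold in any comparison, and their median log2 difference between OLs and OPCs was 0.09, against 0.14 for the pools of the box and 0.12 for all pools.

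Pools of other codon boxes that share the wobble base of a member were also compared, limited to lists of 8 each, so that other pools with the same wobble base were not counted. The 8 pools with A at the wobble position that are known to carry inosine, for Ala, Arg (Arg-ACG), Ile, Leu, Pro, Ser, Thr and Val, had a median log2 difference between OLs and OPCs of 0.21, ranging from -0.29 to 0.38. For T and C the lists held the pools of the boxes in which every codon encodes the same amino acid, those of Ala, Arg, Gly, Leu, Pro, Ser, Thr and Val. The 8 with T, which include Arg-TCG, had a median of 0.18, and the 8 with C, which include Arg-CCG, a median of 0.09. Of each of these lists 0 passed the threshold in any comparison, and the unadjusted p was under 0.05 between OLs and OPCs for 2, 1 and 1 of them. The 0.25 of Arg-ACG lay inside the range of its list.

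Across the 7 libraries, the level of Arg-ACG varied most alike with Ser-GCT (Pearson r = 0.981 on the log2 scale), Thr-TGT (0.904) and Arg-TCT (0.881), of the 46 other pools that averaged 100 RPM or more. Arg-CCG varied most alike with Arg-CCT (0.968), Asp-GTC (0.893) and Leu-CAA (0.858), and Arg-TCG with Gln-TTG (0.884), Thr-CGT (0.867) and Ser-GCT (0.802). The median r over all 46 was 0.31, -0.08 and 0.25 in turn. The points share each library's total and its cell type, so these values describe 7 libraries and no more.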

How the data were processed

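tRNA levels came from 7 QuantM-seq libraries (OPC 3, OL 2, astrocyte 2), grouped by the deposited labels. Per the study's methods, the authors trimmed adapters and the 3′ CCA with cutadapt, mapped reads with bowtie2 in local mode to high-confidence mature tRNAs of mm10 with identical genes collapsed, counted them strand-specifically with featureCounts at a mapping quality of at least 10, and deposited RPM, reads scaled to a common sum over cytosolic and mitochondrial tRNAs, without pooling replicates. Isodecoders of a pool differ at few bases, so reads could be placed on a near-identical member or dropped. Inosine is read as G, which counts as a mismatch in Arg-ACG. The effect of either was not tested. The authors' deposited DESeq2 comparisons of OPCs with OLs were not used.

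Here log2(RPM + 1) was compared with limma 3.58.1 in R 4.3.3 (two-sided, variance trend over level except for shares), which understates changes of low tRNAs. Benjamini-Hochberg adjustment covered the 52 pools, the 192 isodecoders averaging 1 RPM or more, or 184 shares, and the threshold was an adjusted p of 0.01. Shares were log2 isodecoder minus log2 pool. Comparisons with OPCs used the libraries of both groups alone, and OLs against astrocytes used all 7. Sums and pool shares were compared by exact permutation tests. All 3 pools and 10 isodecoders were named, with the other arginine pools, the pools of each wobble base and the 3 most alike pools. Scripts were tested on simulated data.

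All RPM were whole multiples of 1 read within 0.01 read, which gave the depth. Only 43 to 55 low values per library showed the step, under the 100 needed, so no count test was run. PCR copies were not marked, so limits from reads cover counting error only. No replicate pair agreed within counting error (chi-square per degree of freedom 31.0 to 195). The study describes independent experiments, with OLs from 2 of the OPC replicates, not named. Coordinates and the sequence are from RefSeq (GRCm38, the same assembly as mm10), with gene context taken from GENCODE. Sequences of the other 13 genes were not used here. The members and lists were chosen with earlier results of these data known.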

Additional observations from a re-analysis of the deposited data

Results flagged for a closer look

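Arg-TCG-2 was lower in OLs than in astrocytes by -0.87 on the log2 scale (limma adjusted p = 0.0021). It lay below OPCs in OLs (-0.51) and above them in astrocytes (0.37). Both fates start from the same OPCs, and the contrast between them tests the difference of their changes. The share of Arg-CCG-2 in its pool differed between the same cell types by -0.41 on the log2 scale (limma adjusted p = 0.0046), with -0.49 in OLs and -0.07 in astrocytes against OPCs. How each call moved when an OPC library was left out is given above. Fits that leave 1 library in a group are given by log2 difference alone and cannot decide whether either call holds.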

How the results depend on the processing

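Groups of 2 libraries limit every comparison, and a p that misses the threshold does not show that levels were equal. Of the alternatives run, 0 gave a call to a pool. Between OLs and OPCs the number of isodecoders of the box called was 0 as reported, where 11 of all isodecoders tested passed. After rescaling to the cytosolic tRNAs it was 1 (17 of all). Median-of-ratios scaling also gave 1 (22 of all), as did a minimum mean of 100 RPM (19 of all). At a threshold of 0.05 it was 3 (35 of all). Leaving out OPC replicate 1, 2 or 3 gave 0, 0 and 3 (4, 9 and 29 of all). Without OL replicate 1 or 2, which leaves 1 OL library, the log2 difference of Arg-TCG-2 was -0.47 and -0.55. Between OLs and astrocytes the number of isodecoders called was 1 as reported (12 of all). It was 0 without the variance trend or the filter (0 of all each time) and 2 at a threshold of 0.05 (18 of all). Leaving out OPC replicate 1, 2 or 3 gave 1, 1 and 2 (9, 8 and 20 of all). Without an OL or astrocyte library, which leaves 1 in a group, the log2 difference of Arg-TCG-2 was -0.9997 to -0.75. The number of shares of the box called between OLs and OPCs was 1 as reported (4 of all shares tested). It was 0 with a pseudocount of 0.1 (3 of all) or no filter (1 of all), and 2 at a threshold of 0.05 (26 of all). Without OPC replicate 1 or 2 it was 0 (0 of all). Without OPC replicate 3 it was 1 (5 of all), the share of Arg-TCG-2 and not that of Arg-CCG-2. Without OL replicate 1 or 2 the log2 difference of the Arg-CCG-2 share was -0.52 and -0.45. Between OLs and astrocytes the number of shares was 1 as reported (7 of all). It was 2 at a threshold of 0.05 (26 of all) or a minimum of 100 RPM (15 of all), and 0 in a fit of those libraries alone (0 of all). Leaving out OPC replicate 1, 2 or 3 gave 0 each time (0, 0 and 8 of all). Leaving out an OL or astrocyte library leaves 1 in a group, and the log2 difference of the Arg-CCG-2 share was then -0.45 to -0.38. The cause of these moves was not tested.

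Same-numbered libraries were not shown to be pairs, since the study does not name the OPC replicates that gave the OLs. Only replicates 1 and 2 are shared, and their deviations correlated at -0.29 to 0.34. In a group of 2 libraries the deviations mirror each other, so these correlations cannot decide the question. With a replicate block, 5 isodecoders of the box were called between OLs and OPCs, where 45 of all 192 isodecoders passed. Between OLs and astrocytes 1 was called, where 10 of all passed. For shares 0 were called in both comparisons, where 0 of all shares passed, and 0 pools were called in any comparison. The block turned the sign of the summed level (0.020) and of the Arg-ACG share (0.0988 points) of astrocytes against OPCs, of the Arg-CCG share of OLs against OPCs (-0.565 points), and, for astrocytes against OPCs, of the log2 differences of Arg-ACG (0.024) and of the Arg-CCG-3 share (-0.016). With crossed numbers for OLs and astrocytes, chosen after seeing the data, 0 pools, 1 isodecoder and 0 shares were called. Of all isodecoders 18 passed in that fit, and of all shares 0.

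Signs that turned belonged to differences that did not pass the threshold. Between OLs and OPCs Arg-TCG was -0.035 after rescaling and -0.092 under median-of-ratios scaling, Arg-TCG-3 was -0.024 and -0.047, and between OLs and astrocytes Arg-TCG was -0.0062 under median-of-ratios scaling. Leaving out 1 library gave these log2 ranges for OLs against OPCs: -0.044 to 0.071 for Arg-TCG, -0.054 to 0.11 for Arg-TCG-3, -0.010 to 0.040 for its share and -0.088 to 0.022 for the Arg-ACG-1 share. For astrocytes against OPCs they were -0.15 to 0.024 for Arg-ACG, -0.017 to 0.35 for Arg-CCG, -0.12 to 0.31 for Arg-CCG-2, and -0.026 to 0.10, -0.016 to 0.077 and -0.090 to 0.023 for the shares of Arg-CCG-1, Arg-CCG-3 and Arg-TCG-3. For OLs against astrocytes they were -0.21 to 0.16 for Arg-CCG, -0.050 to 0.33 for Arg-CCG-3, -0.017 to 0.25 for Arg-CCG-1, -0.0016 to 0.28 for Arg-ACG-3, and -0.010 to 0.18 and -0.012 to 0.10 for the shares of Arg-TCG-1 and Arg-TCG-3. The summed level of astrocytes against OPCs ranged from -0.079 to 0.020, their Arg-ACG share from -1.87 to 0.953 points, the Arg-CCG share of OLs from -0.565 to 1.07 points against OPCs and from -4.95 to 0.324 points against astrocytes.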

Other observations

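At the level of isodecoders, chosen after its values were seen, Arg-CCT-4 of the neighbouring AGG-reading pool followed Arg-CCG-3 closely. It measured 6166, 6100 and 5362 RPM in OPCs, 8051 and 8182 RPM in OLs, and 6006 and 7842 RPM in astrocytes. The ratio of Arg-CCT-4 to Arg-CCG-3 in RPM was 0.996, 1.00 and 1.05 in OPCs, 1.09 and 1.11 in OLs, and 1.03 in both astrocyte libraries. Their Pearson correlation over the 7 libraries was 0.977 on the log2 scale, the third highest of 121 isodecoders that averaged 100 RPM or more. The other members of the Arg-CCT pool correlated with Arg-CCG-3 at -0.45, -0.47 and -0.07. Whether reads of these 2 tRNAs can be told apart was not tested, since their sequences were not used here.

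Arg-CCT-1 and Arg-CCT-2 were lowest in OLs, at 1095 and 1071 RPM and at 872 and 893 RPM, against 1497 to 1800 RPM and 1211 to 1461 RPM in OPCs. Both were thus on the side of Arg-CCG-2, which was also lowest in OLs.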
